A study of Mus musculus with 12 samples.

Results

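The smooth muscle contractile genes described here are Myh11, Acta2, Actg2, Cnn1, Tagln, Smtn, Des, Lmod1, Synpo2 and Myl9. They were chosen by symbol, with earlier results of these data known. A probe set is the set of short probes that reads 1 transcript on the array. Every probe set annotated with a single gene that was one of these genes was taken, whatever its values. This gave 10 genes of 18193 and 17 probe sets of 45037. Of these genes, 6 had 1 probe set and 4 (Myh11, Acta2, Des and Synpo2) had several, and such a gene is represented by its brightest probe set, judged by mean intensity across all 12 arrays, unless another is named.

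RNA of gonadal white adipose tissue (WAT), the thigh muscle M. vastus lateralis and liver was measured on Affymetrix arrays of the mouse genome in female GHSR KO mice on a C57bl/6 background, 12 weeks of age, which lack the receptor of acylated ghrelin in all groups. The mice had been given UAG, ghrelin without its acyl group, at 20 nmol/kg, or saline, intraperitoneally, and tissues were taken 6 h later. Each tissue has 2 UAG and 2 saline arrays, 12 arrays in all, and the question was what UAG does to expression where GHSR is absent. The labels tie no array to a mouse, so a p-value here reflects just the spread among the arrays at hand, which may be partly technical, and no mice with GHSR are among them. Values are normalized intensities, and those under 30, the threshold of the study's methods, were set to 30 (the floor) wherever a ratio, mean or test is given.

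Smooth muscle cells line blood vessels and hollow organs and contract when myosin, phosphorylated on its regulatory light chain, pulls on actin filaments. Many genes of this apparatus carry CArG boxes, the DNA sites of serum response factor (SRF), which acts with the cofactor myocardin. In adipose tissue the usual carriers of these genes are the muscle coat of arteries and veins and the pericytes around capillaries. In bulk RNA, fewer cells of a type and less RNA per cell cannot be told apart.

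A single array dominated the WAT values of these genes. As the genes were chosen with earlier results known, the shares of all genes beside them are descriptive only. Saline replicate 2 of WAT was the highest of the 4 WAT arrays for 9 of the 10 genes, and for each of the 9 it was at least 2-fold above the next array, where 26.5% of the 11981 genes tested in WAT were highest and 1.83% were so by 2-fold. The exception was Synpo2, where every probe set but 1435399_at was highest on UAG replicate 1. Only 1435399_at was highest on saline replicate 2. The array did not stand apart over the whole genome: its correlation with the other WAT arrays was 0.951 to 0.957, within the 0.951 to 0.962 among all WAT arrays, and its median ratio to the mean of the other 3 was 0.959 over all genes, against 4.82 over the 10 smooth muscle genes. Because it is 1 of only 2 saline arrays of WAT, the UAG comparison of the 10 genes in WAT is given with and without it.

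Myosin and its light chain showed the pattern plainly. Myh11, the heavy chain of smooth muscle myosin, had 515 and 703 on the UAG arrays of WAT, against 658 and 5589.9 on saline replicates 1 and 2. Myl9, a regulatory light chain, had 1356 and 1431 on UAG arrays and 1456 and 8013 on saline arrays. In both genes saline replicate 1 lay beside the UAG arrays and saline replicate 2 stood alone, 7.95-fold above the next array for Myh11 and 5.51-fold for Myl9. The dimmer Myh11 probe set, 1418122_at, had 40.3 and 51.5 on UAG arrays and 32.2 and 141 on saline arrays, with the same array on top.

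The thin filament genes followed. Acta2, alpha smooth muscle actin, had 3373 and 2892 on the UAG arrays of WAT and 3216 and 11931 on saline arrays. Its probe set 1416454_s_at bears the suffix that Affymetrix gives to probes able to match several genes, but the other Acta2 probe sets, 1444105_at and 1456658_at, were also highest on saline replicate 2 (213 and 94.3), against values of at most 36.0 and 30.3 on the other WAT arrays. Actg2, the gamma smooth muscle actin of visceral organs, had 286 and 474 on UAG arrays and 348 and 4963 on saline arrays. Among the 9 genes the jump to saline replicate 2 was widest for Cnn1 (10.97-fold above the next array) and Actg2 (10.5-fold) and narrowest for Lmod1 (2.69-fold), with Acta2 at 3.54-fold.

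Actin-binding regulators and the intermediate filament gave similar profiles. Cnn1, calponin, which binds actin and restrains myosin, had 251 and 307 on UAG arrays and 282 and 3363 on saline arrays. Tagln, transgelin or SM22 alpha, had 1972 and 2440.4 on UAG arrays and 1372 and 6938 on saline arrays. The remaining 3 WAT arrays had 1928 ± 536 for Tagln and lay closer together for Cnn1, with 279.7 ± 28.1 (SD, n = 3 arrays). Smtn, smoothelin, had 356 and 336 on UAG arrays and 273 and 1235 on saline arrays. Des, desmin, the intermediate filament protein of muscle cells in general, had 252 and 296 on UAG arrays and 285 and 1920.3 on saline arrays. Its second probe set, 1426732_at, was near the floor in WAT, at most 31.8. Lmod1, leiomodin, which starts actin filaments in smooth muscle, was dim, with 44.4 and 31.0 on UAG arrays and 73.4 and 197 on saline arrays, and here saline replicate 1 too was above both UAG arrays.

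**Figure D1:**
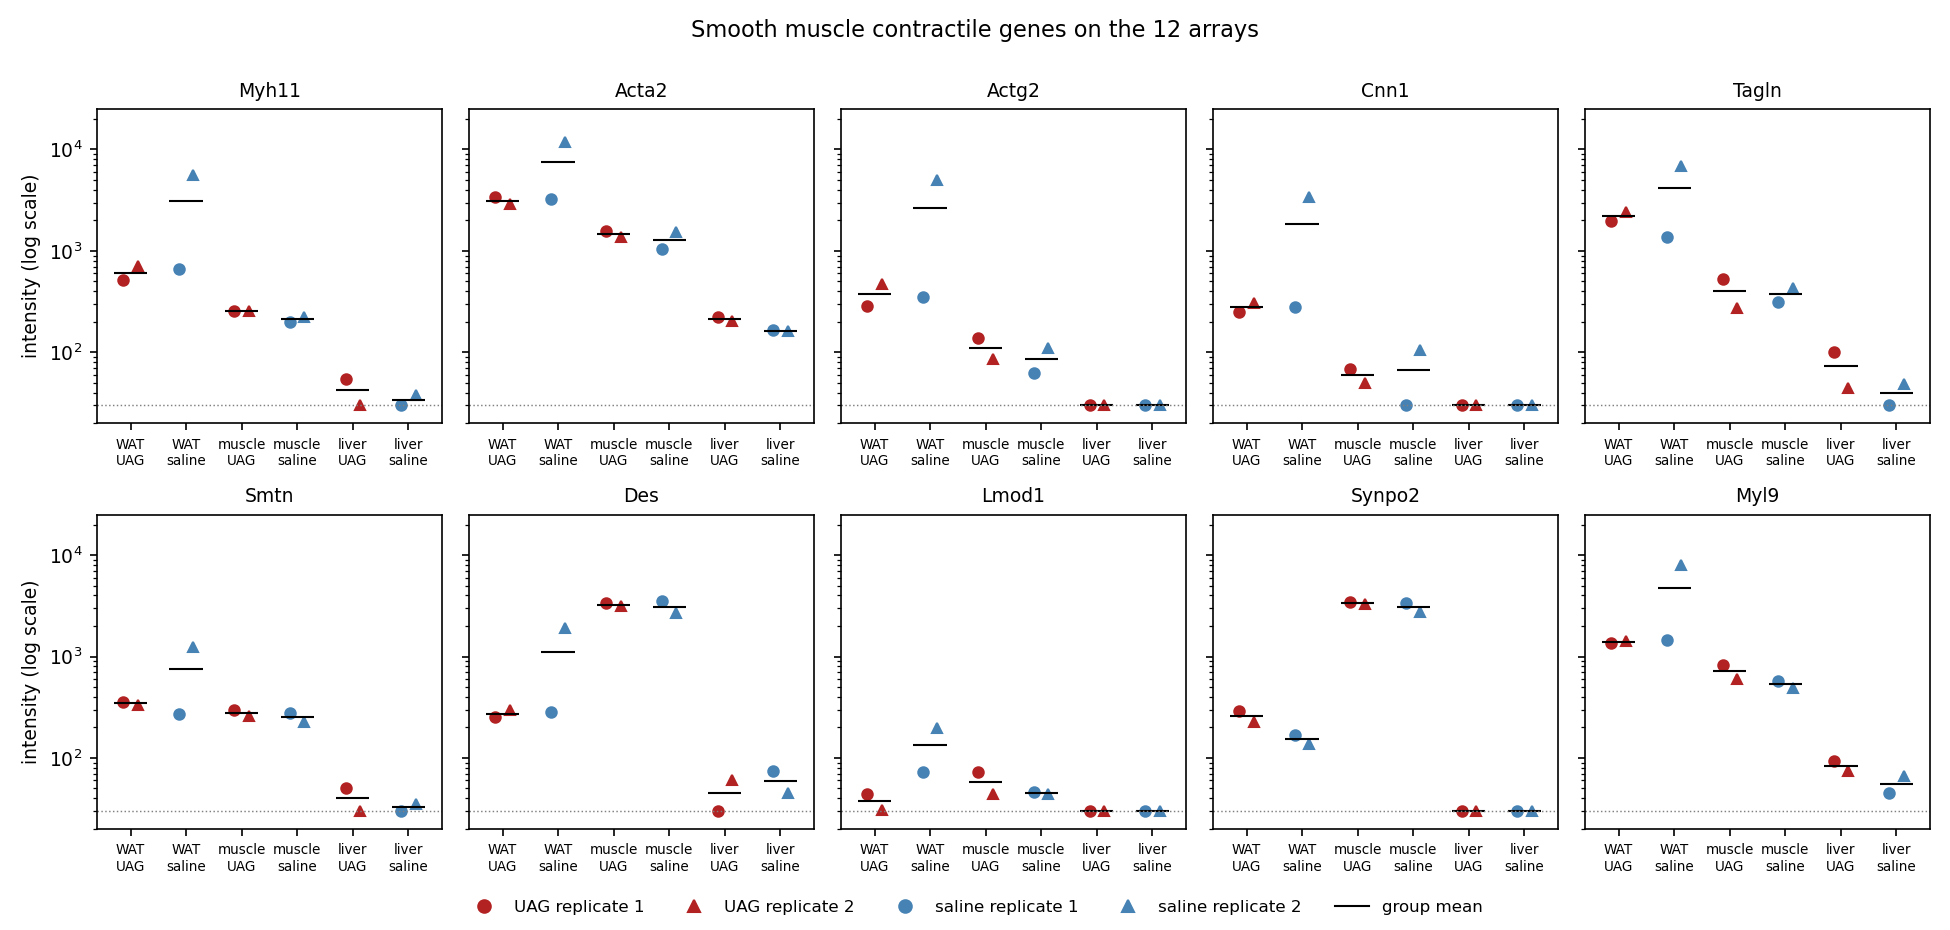
Intensity (log scale, values under 30 set to 30, dotted line) of the 10 smooth muscle contractile genes on the 12 arrays, by tissue and treatment, with a point for each array and a bar for the group mean. In WAT the triangle of saline replicate 2 lies apart from the other 3 arrays in 9 genes, Synpo2 and Des are highest in muscle, and liver is at or near the floor for most genes.

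Synpo2, synaptopodin 2, an actin-binding protein of smooth and striated muscle, was the gene whose probe sets disagreed. The probe set with the highest mean, 1452879_at, had 292 and 226 on the UAG arrays of WAT, against 168 and 138 on saline arrays. Probe set 1435399_at had 223 and 235 on UAG arrays and 156 and 1325 on saline arrays, 5.63-fold above the next array on saline replicate 2. Probe set 1441206_at was highest on the UAG arrays of WAT, 555 and 402.5, against 187 and 216 on saline arrays. In WAT 1450828_at was also higher on UAG arrays, 239 and 207, against 138 and 160 on saline arrays. In muscle the split was as sharp: 1452879_at had 3445 and 3319.9 on UAG arrays and 3339.7 and 2767 on saline arrays, while 1435399_at had 80.3 and 65.4 on UAG arrays and 81.1 and 68.8 on saline arrays. So 1452879_at and 1450828_at (1748 to 1970.4 on UAG and 1495 to 1947 on saline arrays of muscle) marked skeletal muscle, 1435399_at marked saline replicate 2 of WAT, and 1441206_at followed neither. Which transcripts of Synpo2 these probe sets detect is not given in the sources used here.

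**Figure D2:**
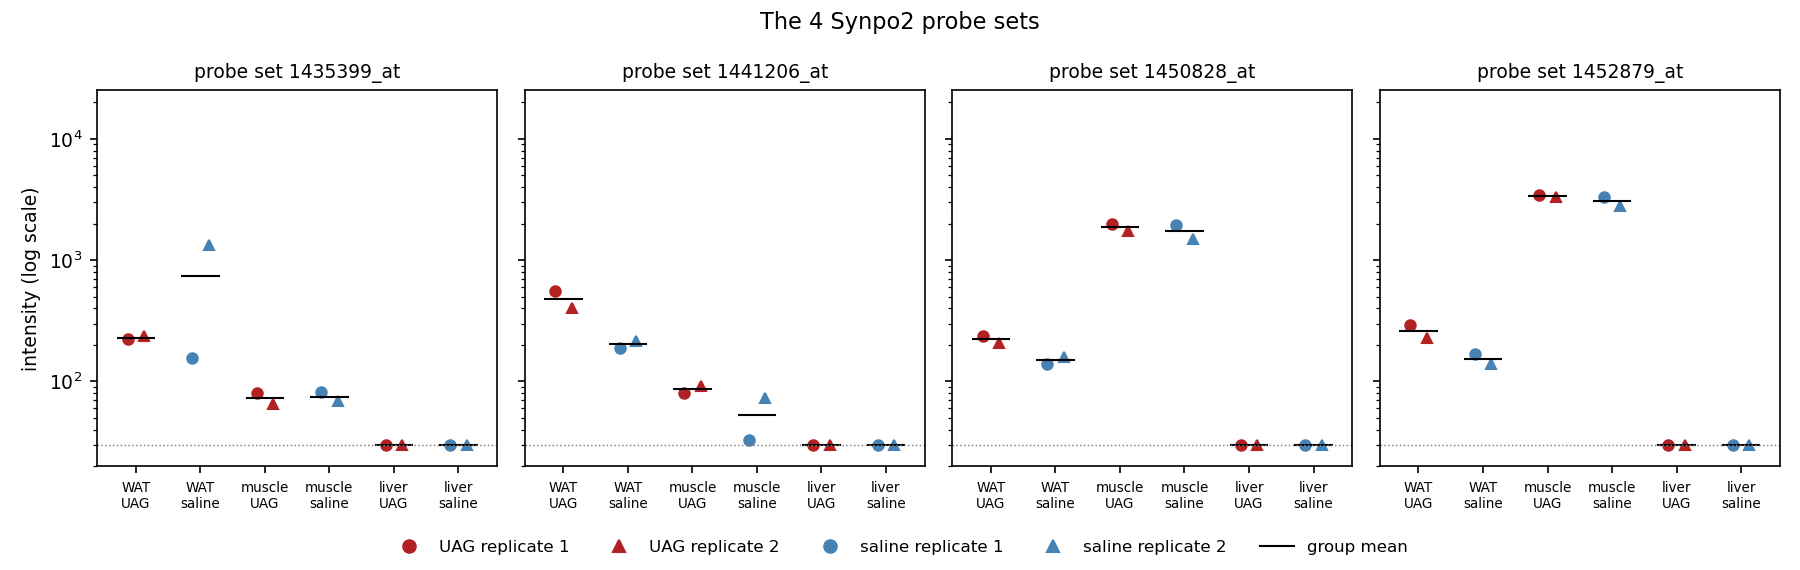
Intensity (log scale, floor of 30 dotted) of the 4 Synpo2 probe sets on the 12 arrays, with a point for each array and a bar for each group mean. Probe set 1435399_at peaks at 1325 on saline replicate 2 of WAT, 1441206_at at 555 on UAG replicate 1 of WAT, and the other two in muscle.

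Counted by probe set, 14 of the 17 were highest on saline replicate 2 among the WAT arrays, 13 of them by at least 2-fold (1.5% of the 25307 probe sets tested in WAT), and each of the 10 genes had such a probe set. Summed over the 10 genes, intensity was 8698 and 9137 on the UAG arrays of WAT and 8132 and 44289 on saline arrays. The same sum was 10541 and 9445 on UAG arrays and 9392 and 8641 on saline arrays of muscle, and 675 and 564 on UAG arrays and 494 and 515 on saline arrays of liver. No muscle or liver array stood out in the way that saline replicate 2 of WAT did.

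The UAG comparison in WAT therefore took its size from that array. By the rule of the study's methods, a ratio of the group means of at least 2 or at most 0.5, 8 of the 10 genes were lower with UAG (background 1.95% of 11981 genes) and 0 were higher (background 0.509%). The lowest ratios were those of Actg2, 0.143, with 380.0 ± 133 on UAG and 2655 ± 3263 on saline arrays, Cnn1, 0.153, with 279 ± 39.6 on UAG and 1822 ± 2179 on saline arrays, and Myh11, 0.195, with 609 ± 133 on UAG and 3124 ± 3487 on saline arrays (SD, n = 2 each). In these 3 genes the SD of the saline arrays exceeded their mean. Tagln (0.531) and Synpo2 (1.69) did not reach the rule.

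By limma none of this passed. Of the 10 genes, 0 had an adjusted p under 0.05, as did 0% of the 11981 genes, and at an unadjusted p under 0.05 there were 2 of the 10 genes (Lmod1 and Synpo2), against 7.12% of all genes. On the log2 scale the differences, UAG minus saline, were -1.67 (SE 0.93) for Myh11, -1.84 (SE 1.16) for Actg2, -1.81 (SE 1.07) for Cnn1 and -1.44 (SE 0.83) for Des, with limma adjusted p-values of 0.791, 0.809, 0.800 and 0.793. Acta2 had -0.99 (SE 0.58), Myl9 -1.29 (SE 0.74), Smtn -0.75 (SE 0.66) and Tagln -0.49 (SE 0.71). The median was -1.37 over the 10 genes and 0.029 over all genes. UAG and saline arrays did not overlap in 3 genes: Lmod1 (log2 difference -1.70, SE 0.49, limma adjusted p = 0.644) and Myl9 were lower with UAG (background 14.2%), and Synpo2 (0.75, SE 0.21, adjusted p = 0.644) was higher (background 24%). The smallest adjusted p of any member probe set was 0.556, for Synpo2 1441206_at, which was 2.37 times as high with UAG (log2 difference 1.23, SE 0.21), while Synpo2 1435399_at had a ratio of 0.309. Without saline replicate 2 these ratios were 2.56 and 1.46, so the direction of 1435399_at turned.

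Without saline replicate 2, 0 of the 10 genes differed by 2-fold between the UAG arrays and saline replicate 1, where 1.97% of all genes were lower and 0.91% higher by that much. The ratios then ran from 0.514 for Lmod1 to 1.61 for Tagln, 6 under 1 and 4 above it. Acta2 had 0.974, Cnn1 0.989, Myl9 0.958, Des 0.960, Myh11 0.925 and Actg2 1.09. Of the 8 genes that met the 2-fold rule over all 4 arrays, 6 were thus within 10% of saline replicate 1, and Smtn (1.27) and Lmod1 were not. The median log2 ratio was -0.033 over the 10 genes and 0.040 over all genes. Without saline replicate 1 instead, log2 differences reached -3.75 (Actg2), and the smallest limma adjusted p of a member probe set was 0.180.

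**Figure D3:**
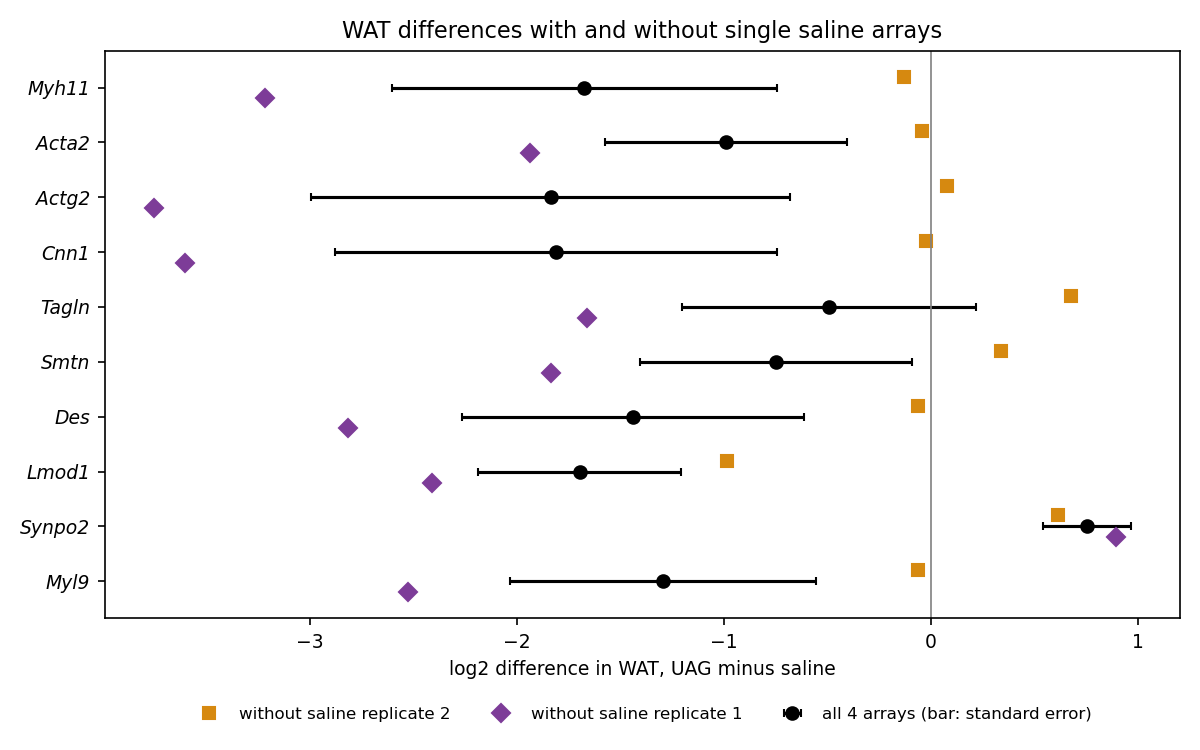
Log2 difference in WAT, UAG minus saline, for the 10 genes: black points over all 4 arrays with standard errors from limma, squares without saline replicate 2 and diamonds without saline replicate 1. For Myh11 the values are -1.67, -0.13 and -3.22, and without saline replicate 2 Acta2, Actg2, Cnn1, Des and Myl9 also lie close to 0.

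Genes outside the 10 that serve the same apparatus, in a list chosen with earlier results known, were mostly also highest on saline replicate 2. Of 35 other contractile and regulatory genes of smooth muscle, 30 were on the array under a single symbol and 29 were tested in WAT. Of the 29, 27 were highest on saline replicate 2 and 19 by at least 2-fold (26.5% and 1.83% of all genes). With UAG, 14 of the 29 had ratios at or under 0.5 (background 1.95%) and 0 at or above 2 (background 0.509%). Of the 29, 0 passed limma, and the median log2 difference was -0.74. Without saline replicate 2, 1 of the 29 had a ratio at or under 0.5 (background 1.97%) and 0 at or above 2 (background 0.91%). The median was then 0.082. Tpm2, beta tropomyosin of the thin filament, had 1042 and 1164 on the UAG arrays of WAT and 1016 and 7157 on saline arrays. Tpm1, alpha tropomyosin, had 404 and 415 on UAG arrays and 789 and 2816 on saline arrays. In both, saline replicate 2 was far above the rest. Pgm5, aciculin, a protein of muscle adhesion sites, had 85.3 and 81.7 on UAG arrays and 115 and 699 on saline arrays. Jph2, junctophilin 2, which ties calcium stores to the cell membrane, had 34.6 and 39.9 on UAG arrays and 83.0 and 277 on saline arrays. These 4 had the widest log2 differences of the list (-1.29, -1.86, -1.77 and -2.03, in that order), and without saline replicate 2 they had 0.12, -0.95, -0.47 and -1.16. The myosin light chain kinase gene Mylk, which acts on the protein of Myl9 and was picked after its values were seen, had 1278 and 1819 on UAG arrays and 1363 and 5788 on saline arrays. The 2 genes of the list highest elsewhere were Gucy1a1 and Gucy1b1, subunits of the nitric oxide receptor, with 442 and 256 on saline replicate 2.

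SRF itself was flat across the WAT arrays, with 109 and 124 on UAG arrays and 107 and 116 on saline arrays. Myocd, myocardin, its cofactor in smooth and heart muscle, had 28.5 and 17.2, both under the floor, on UAG arrays and 34.6 and 119 on saline arrays. The list of SRF, its cofactors and related factors held 8 genes: Srf, Myocd, Mrtfa, Mrtfb, Elk1, Elk4, Tead1 and Klf4. Of these 8, Myocd was the only one highest on saline replicate 2 (26.5% of all genes).

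The start sites of the members were searched for CArG boxes because the genes moved together on that array. RefSeq windows of 300 bases around the start site (GRCm38.p6) matched 7 of the 10 genes. A full CArG box on either strand was found in 1 of the 7, Myl9, and in 1.63% of all 32851 windows, and a site with at most 1 mismatch in 3 of the 7 and in 21.1% of all windows. Those 3 are shown 5′ to 3′ in the direction of transcription, with the sites of at most 1 mismatch in capitals (the CArG box reads the same on both strands). They are from Acta2 (chr19:34255324-34255623, minus strand), Lmod1 (chr1:135324563-135324862, plus strand) and Myl9 (chr2:156775214-156775513, plus strand).
Acta2: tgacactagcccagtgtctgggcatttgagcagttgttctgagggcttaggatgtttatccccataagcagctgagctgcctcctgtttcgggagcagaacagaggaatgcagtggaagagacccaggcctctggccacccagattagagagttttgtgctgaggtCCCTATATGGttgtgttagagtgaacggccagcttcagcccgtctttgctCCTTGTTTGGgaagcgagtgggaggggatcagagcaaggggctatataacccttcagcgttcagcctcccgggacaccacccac
Lmod1: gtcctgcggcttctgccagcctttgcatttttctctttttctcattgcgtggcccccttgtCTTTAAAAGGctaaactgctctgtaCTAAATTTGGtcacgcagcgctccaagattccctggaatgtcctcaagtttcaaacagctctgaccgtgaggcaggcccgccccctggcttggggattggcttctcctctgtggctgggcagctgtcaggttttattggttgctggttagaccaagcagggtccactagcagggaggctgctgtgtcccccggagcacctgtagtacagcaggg
Myl9: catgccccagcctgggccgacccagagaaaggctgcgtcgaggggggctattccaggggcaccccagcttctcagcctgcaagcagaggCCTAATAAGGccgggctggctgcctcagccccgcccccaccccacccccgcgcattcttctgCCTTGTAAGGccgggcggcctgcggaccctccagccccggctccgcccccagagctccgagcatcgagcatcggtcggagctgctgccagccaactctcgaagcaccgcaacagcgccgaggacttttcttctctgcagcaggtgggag
The Myl9 site without a mismatch, CCTAATAAGG, begins 161 bases before the start site, and its second site, CCTTGTAAGG, 99 bases before it. The Acta2 sites CCCTATATGG and CCTTGTTTGG begin 84 and 34 bases before the start site. A match describes the letters only, and binding was not measured.

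Markers of other cells were set beside the smooth muscle genes on saline replicate 2 of WAT. Of 13 genes typical of uterus and oviduct, in a list chosen with earlier results known, 10 were tested. Of these, 9 were highest on that array and 5 by at least 2-fold (26.5% and 1.83% of all genes). The summed intensity of the 13 was 2009 and 2237 on the UAG arrays and 2241 and 10397 on saline arrays. Of the 10397, Pcp4 alone gave 5472. Pgr, the progesterone receptor, had 47.5 and 36.4 on UAG arrays and 33.5 and 1069 on saline arrays. Pcp4, a calmodulin-binding peptide, had 208 and 247 on UAG arrays and 278 and 5472 on saline arrays. Saline replicate 2 was alone in both. Oxtr, the oxytocin receptor, is also listed by the study for both WAT and muscle from these arrays. In WAT Oxtr had 292 and 228 on UAG arrays and 441 and 1027 on saline arrays. Hoxa11, a patterning gene of the reproductive tract, had 71.2 and 67.5 on UAG arrays and 219 on saline replicate 2. Hoxa13 and Hoxd11 were under the floor on all 4 WAT arrays, and 8 of the 13 genes were above it on each of the other 3 WAT arrays. Epithelial and mesothelial genes were not raised in this way. Of 9 tested, 3 were highest on saline replicate 2 and 0 by 2-fold (26.5% and 1.83% of all genes). The 10 genes of that list summed to 5351 and 2909 on UAG arrays and 3111 and 3248 on saline arrays.

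The sum of the pericyte markers was similar on the 4 WAT arrays, and that of the endothelial markers was lowest on saline replicate 2. Single markers spread more, such as Cspg4, a pericyte marker (145 and 183 on UAG arrays, 314 and 229 on saline arrays). Tie1, an endothelial marker, had 195 and 193 on UAG arrays and 171 and 115 on saline arrays. Of all genes, 26.5% were highest on saline replicate 2 and 1.83% by 2-fold. Of 9 pericyte markers 1 was highest on that array and 0 by 2-fold. Their sum was 6442 and 6620.4 on UAG arrays and 6385 and 6084 on saline arrays. Of 9 endothelial markers 0 were highest on saline replicate 2. Their sum was 4082 and 4194 on UAG arrays and 3879 and 3341 on saline arrays. Fibroblast markers were intermediate, with 5 of 8 highest on saline replicate 2 and 1 of the 8 by 2-fold. The latter was the collagen gene Col1a1 (1299 and 1237 on UAG arrays, 754 and 3728 on saline arrays). White adipocyte markers summed to 57599.7 and 62736 on UAG arrays and 56408 and 51559.9 on saline arrays. The part of these other cells in the smooth muscle values was not tested.

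**Figure D4:**
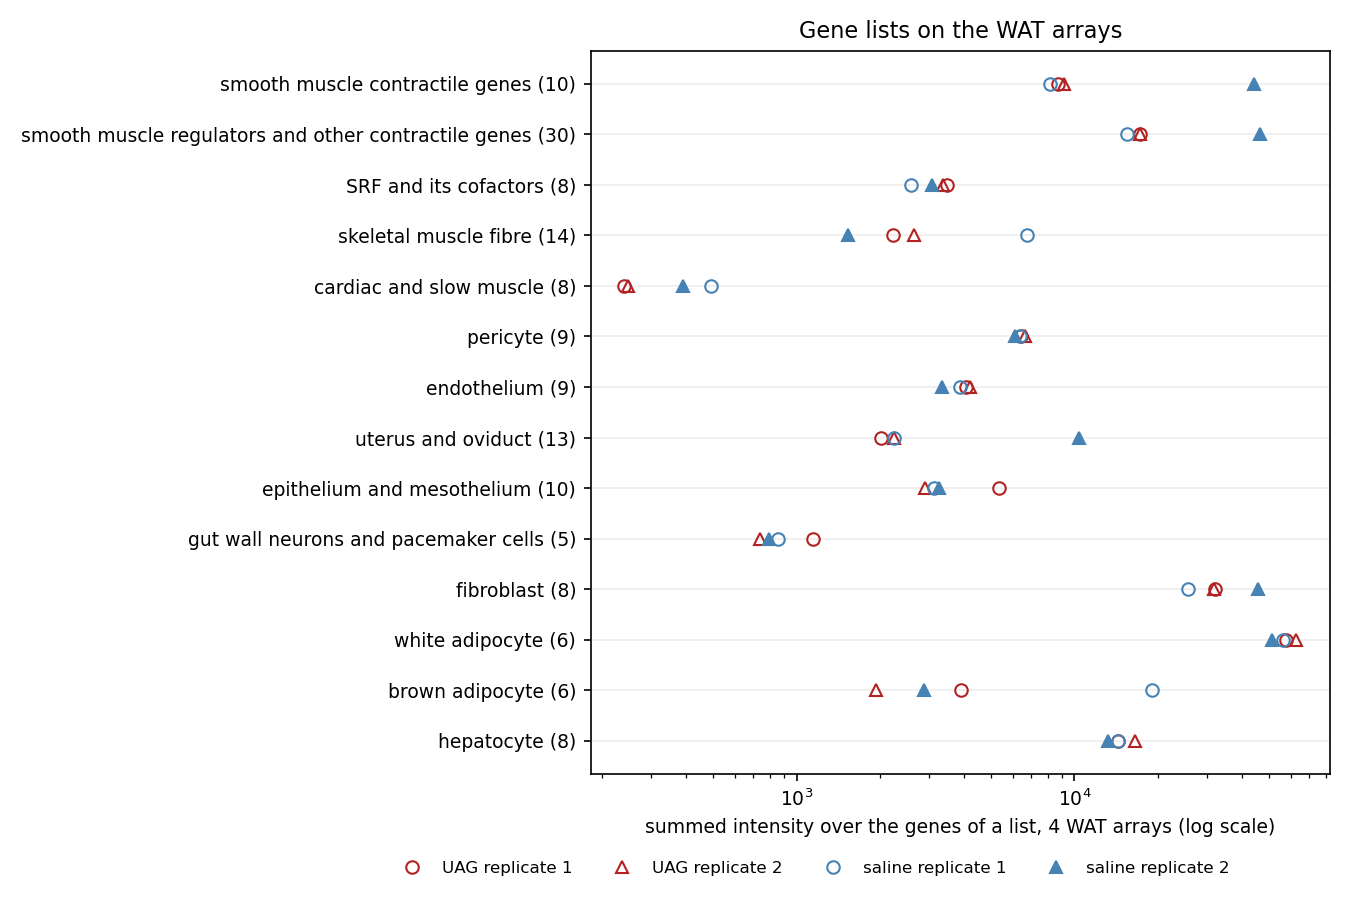
Summed intensity (log scale) of each gene list on the 4 WAT arrays, with the number of genes in brackets, where the filled triangle is saline replicate 2. The triangle lies far to the right for the smooth muscle contractile genes (44289), the other smooth muscle genes (46566) and the uterus and oviduct genes (10397), and beside the other arrays for pericyte, endothelial and adipocyte genes.

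The other saline array of WAT stood apart in a different way. On saline replicate 1, 11 of 13 tested skeletal muscle fibre genes and 5 of 6 brown adipocyte genes were at least 2-fold above the next WAT array (background 1.29%). Their sums on that array were 6741 and 19059, against 1526 and 2873 on saline replicate 2. Of the 10 smooth muscle genes 0 were highest by 2-fold on saline replicate 1 (background 1.29%), and Des, which skeletal muscle shares, was at 285 there, between the UAG arrays. The 2 saline arrays of WAT thus differed from the UAG arrays in different gene sets. The ratio of the 3′ to the 5′ control probe sets of beta-actin, a measure of RNA integrity, was 1.81 on saline replicate 2, within the 1.70 to 1.96 of the WAT arrays.

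In muscle the 10 genes differed little between treatments. No gene reached a 2-fold ratio in either direction (background 0.37% lower and 0.269% higher of 11894 genes), limma called 0 of 10 and 0% of all genes, and 0 of the 10 had an unadjusted p under 0.05 (1.85% of all genes). All 10 log2 differences were above 0, between 0.049 and 0.41, with a median of 0.18 over the 10 and 0.010 over all genes, but the ratio of arithmetic means was 0.874 for Cnn1, and 8 of them turn sign when an array is left out or a setting is changed. UAG arrays lay wholly above saline arrays in 2 genes (background 11.8%) and wholly below in 0 (background 9.77%). Myh11 had 253 and 258 on UAG arrays and 200.5 and 223 on saline arrays, and Myl9 had 823 and 605 on UAG arrays and 578 and 487 on saline arrays. Myl9 had the widest difference, 0.41 (SE 0.21, limma adjusted p = 1.000). Des, here mainly a gene of the muscle fibre, had 3342 and 3169 on UAG arrays and 3493 and 2707 on saline arrays. Acta2 had 1573 and 1383 on UAG arrays and 1051 and 1536 on saline arrays, and Tagln had 531 and 273 on UAG arrays and 313 and 434 on saline arrays. In both, the spread within a treatment was wider than the difference between treatments.

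The dim genes of muscle were no more separated. Actg2 had 137 and 85.8 on UAG arrays and 62.0 and 109 on saline arrays, and Cnn1 had 69.0 and 49.5 on UAG arrays and 27.9, under the floor, and 105 on saline arrays. Smtn had 295 and 257 on UAG arrays and 279 and 228 on saline arrays, and Lmod1 had 72.3 and 44.1 on UAG arrays and 46.6 and 43.8 on saline arrays. Saline replicate 2 of muscle also had high Pgr (400.2, against 41.1 and 49.5 on UAG arrays and 12.5 on saline replicate 1) and Oxtr (291, against 63.1 and 83.1 on UAG arrays and 70.9 on saline replicate 1). These were the 2 of 7 tested uterus and oviduct genes that were highest there by 2-fold, and Pcp4 (18.5) and Hoxa11 (30.5) were at or near the floor. On the same array 4 of 6 tested epithelial and mesothelial genes were highest by 2-fold, among them the keratin genes Krt18 (1056), Krt19 (1015) and Krt8 (602), against 0.689% of 11894 genes. The smooth muscle genes were not raised on that muscle array, unlike on saline replicate 2 of WAT. The summed intensity of the 10 genes was the lowest of the 4 muscle arrays, and Cnn1 was the only gene highest there. The part of the cells behind these markers was not tested.

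In liver 4 of the 10 genes (Actg2, Cnn1, Lmod1 and Synpo2) were under the floor on all 4 arrays, and 5 (Myh11, Acta2, Tagln, Des and Myl9) were bright enough to be tested. limma called 0 of these 5 and 0% of 11850 genes, with 0 of 5 and 3.38% at an unadjusted p under 0.05, and no ratio reached 2-fold (background 0.278% lower and 0.329% higher). Acta2 had 225 and 205 on UAG arrays and 166 and 161 on saline arrays, a log2 difference of 0.40 (SE 0.18). Myl9 had 92.9 and 73.6 on UAG arrays and 44.9 and 66.7 on saline arrays, a difference of 0.60 (SE 0.33). These 2 genes did not overlap between treatments and were higher with UAG (background 15.2%, with 0 genes lower and a background of 14.4%), each with a limma adjusted p of 1.000. Tagln had 101.6 and 44.3 on UAG arrays and 30.1 and 48.7 on saline arrays, a ratio of 1.85 that rests on UAG replicate 1. Des had 25.3, under the floor, and 61.0 on UAG arrays, against 73.6 and 45.6 on saline arrays. Myh11 had 54.4 and 17.2 on UAG arrays and 19.3 and 38.0 on saline arrays, so the groups overlapped at the edge of detection. Smtn, which was too dim to be tested, had 50.9 and 24.9 on UAG arrays and 6.93 and 35.4 on saline arrays. The median log2 difference was 0.40 over the 5 genes and 0.0073 over all genes.

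Of the 10 genes, only Myl9 had treatments that did not overlap in any tissue, lower with UAG in WAT and higher in muscle and liver. Such separation was common within a tissue. Of all genes tested there, 14.2% were wholly lower in WAT, 11.8% wholly higher in muscle and 15.2% wholly higher in liver. The share of all genes that separated in every tissue was not counted, so the pattern of Myl9 is descriptive only. In WAT the value of Myl9 on saline replicate 1 (1456) lay just above its higher UAG array (1431). Without saline replicate 2 the ratio of Myl9 in WAT was 0.958. The differences of its UAG effect were -1.89 (SE 0.81) on the log2 scale between WAT and liver and -1.70 (SE 0.81) between WAT and muscle, each with a limma adjusted p of 1.000. None of the 10 genes passed the test for a UAG effect that differs between tissues, against 0.00794% of 12594 genes between WAT and muscle and 0% for the other pairs. The smallest limma adjusted p over 45 contrasts of member probe sets was 0.930. Of the 45, 7 had an unadjusted p under 0.05 (background 3.75% of 79590 such contrasts). All of these were of Lmod1, Myl9 and Synpo2, negative for the first 2 and positive for Synpo2. Several share a gene or an array group, so the 7 are not independent. Without saline replicate 1 of WAT, when saline replicate 2 stands for the group alone and is taken to vary like the other groups, 6 genes (Myh11, Acta2, Actg2, Myl9, Des and Lmod1) passed (background 0.628% of 12588 genes). Without saline replicate 2, 0 of the 10 passed (background 0.35% of 12568 genes).

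The tissues themselves differed widely. All 10 genes were higher in WAT than in liver, at a limma adjusted p under 0.05 and at least 2-fold (background 17.8% of genes, with 13% lower). Tagln had 3181 ± 2543 in WAT and 56.2 ± 31.3 in liver (SD, n = 4 each), a log2 difference of 5.68 (SE 0.46, adjusted p = 1.22e-06), and Myl9 had 3064 ± 3300 in WAT and 69.6 ± 19.8 in liver, a difference of 5.02 (SE 0.41). The WAT SDs include saline replicate 2. Without it, 9 of the 10 still passed, with Acta2 at 4.08 (SE 0.14) and Myl9 at 4.40 (SE 0.18), and Lmod1 fell below the 2-fold limit at 0.80 (SE 0.22). For the 4 genes under the floor in liver these differences are lower bounds.

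Muscle exceeded liver in 8 of the 10 genes (background 18.5%, with 15.9% lower), all but Cnn1 (0.93, SE 0.63, limma adjusted p = 0.222) and Lmod1 (0.75, SE 0.29, under 2-fold). Actg2 was near the threshold (1.66, SE 0.63, limma adjusted p = 0.040). The count depended on the floor, with 6 genes at a floor of 100 and 10 with no floor. Synpo2 1452879_at, with 3218 ± 306 in muscle and the floor in liver, was at least 107-fold higher in muscle, and Des, with 3178 ± 341 in muscle and 52.6 ± 18.9 in liver, was 63.5-fold higher by the means of log2 values (SD, n = 4 each). Acta2 had 1386 ± 238 in muscle and 189 ± 31.0 in liver, 7.31-fold.

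Between WAT and muscle the genes split. Myh11, Acta2, Actg2, Cnn1, Tagln and Myl9 were higher in WAT (6 of 10, background 12.5%), and Des and Synpo2, which skeletal muscle fibres also use, were lower in WAT (2 of 10, background 9.08%). The log2 differences, WAT minus muscle, were 3.18 (SE 0.63) for Cnn1, 2.88 (SE 0.63) for Actg2, 2.80 (SE 0.46) for Tagln, 2.21 (SE 0.51) for Myh11, 1.83 (SE 0.41) for Myl9 and 1.68 (SE 0.31) for Acta2. They were -2.81 (SE 0.47) for Des and -4.02 (SE 0.12) for Synpo2. Smtn (0.77, SE 0.37, limma adjusted p = 0.113) and Lmod1 (0.40, SE 0.29, adjusted p = 0.270) overlapped between the tissues. Without saline replicate 2 of WAT the same 8 genes passed in the same directions, with smaller differences for the 6, such as 1.44 (SE 0.22) for Myh11 and 2.29 (SE 0.37) for Cnn1. The tissue order therefore did not hang on the array, unlike the UAG comparison. Synpo2 1435399_at and 1441206_at ran the other way from 1452879_at, higher in WAT by 2.13 (SE 0.49) and 2.25 (SE 0.23). The muscle arrays also carried white adipocyte markers, which summed to 26717 to 42575 there, against 51560 to 62736 in WAT. The part of adipose RNA in the muscle levels was not tested.

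Over the 12 arrays the members followed each other to different degrees, described here by Pearson's r between the log2 level of a gene and the mean of the other 9, over arrays that share tissues and normalization. It was 0.992 for Smtn, 0.981 for Myl9, 0.980 for Acta2, 0.958 for Myh11 and 0.925 for Tagln. Actg2 had 0.872, Lmod1 0.790 and Cnn1 0.786, each with liver at the floor, and Des (0.700) and Synpo2 (0.486), the genes highest in muscle, were lowest. On the 4 WAT arrays alone r ran from 0.860 (Lmod1) to 0.999 (Myl9) for 9 genes and was -0.74 for Synpo2, and these values rest on saline replicate 2.

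The non-members most alike over the 12 arrays, by r with the mean of the 10 genes among 15243 genes, were Arhgef25, Ccdc3, Col6a3, Lpar1, Aspn, Filip1l, Lims1, Socs5, Ampd3 and Galnt16, with r between 0.982 and 0.995. Arhgef25, an exchange factor that activates RhoA, had 255 and 217 on the UAG arrays of WAT, 238 and 714 on its saline arrays, 150.4 to 202 in muscle and the floor in liver. Col6a3, a chain of collagen VI, had 1487 and 1350 on the UAG arrays of WAT and 1035 and 5394 on saline arrays. Among the 164 genes with a range of at least 2 on the log2 scale over the 4 WAT arrays, those most alike there were Tpm2, Kcnmb1, Arg1, Greb1, Rxfp1, Chrdl2, Ptpn5, Sprr2f, Col6a4 and Hspb7. Kcnmb1, the beta subunit of the calcium-activated potassium channel of smooth muscle, had 30.8 and 30.6 on UAG arrays and the floor and 184 on saline arrays. Rxfp1, the relaxin receptor, which the study also lists for WAT, was at the floor on the UAG arrays and on saline replicate 1. It was at 122 on saline replicate 2. With 3 arrays at the floor, as for 7 of these 10 genes, likeness says only that a gene was detected on saline replicate 2.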

How the data were processed

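The deposited table holds the authors' normalized array values on a log2 scale, 1 column for each of the 12 arrays. MAS5 is named in the submitters' notes. Quantile normalization in R and a threshold of 30 are named in the methods, and the threshold is not visible in the table. No source gives the logarithm's base, which was taken as 2, since a natural logarithm would give intensities up to 2305490. The 64 control probe sets were left out of tests. Symbols came from the platform annotation, updated through gene identifiers to RefSeq, and 932 probe sets with several symbols and 9160 with none were not used for genes.

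Intensities under 30 were set to 30. Within a tissue, limma 3.58.1 in R 4.3.3 (lmFit, eBayes with an intensity trend) was fitted to the 4 arrays over probe sets with a mean of at least 30, with Benjamini-Hochberg adjustment over all of them, and ratios were taken of arithmetic means. Tissue contrasts and differences of UAG effects came from all 12 arrays with a mean per group, as if tissues were from different mice. Arrays give no depth, and their number limits the precision. Scripts were tested on simulated data.

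The members and lists were chosen with earlier results of these data known. All members were named. Of other lists, the 4 genes with the widest log2 difference in WAT and the genes that define a cell type could be named, and of non-members the 10 most alike by Pearson's r over all arrays and the 10 over WAT arrays. Lists of gut wall cells, cardiac muscle and hepatocytes are shown only as sums. Alternatives were other floors, normalizations, filters, ways to combine probe sets, geometric means, no intensity trend, the replicate number as a block, and each array left out. Numbers shared by UAG and saline arrays are not stated to mark the same mouse, litter or day.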

Additional observations from a re-analysis of the deposited data

How the results depend on the processing

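The count of member genes with a 2-fold ratio in WAT ran from 0 to 9 when single arrays were left out (0 without saline replicate 2). In liver it was 3 with no floor, all from values under 30 (Actg2 higher, Lmod1 and Synpo2 lower), and 0 to 1 with an array left out. The number of genes whose UAG effect differed between tissues was 0 to 6 with an array left out, the 6 without saline replicate 1 of WAT. limma called 0 members within each tissue under every alternative run. With a floor of 100 the tissue contrasts counted 8 members for WAT against liver and 6 for muscle against liver. With no floor both counted 10.

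Signs of single log2 differences turned. With an array of the tissue left out they ran in WAT from -3.75 to 0.080 for Actg2, -1.66 to 0.68 for Tagln and -1.84 to 0.34 for Smtn. In muscle they ran from -0.059 to 0.49 for Acta2, -0.013 to 0.81 for Actg2, -0.85 to 0.96 for Cnn1, -0.43 to 0.53 for Tagln, -0.018 to 0.27 for Smtn, -0.10 to 0.27 for Des, -0.035 to 0.68 for Lmod1, and in liver from -0.95 to 0.074 for Des. Synpo2 in WAT was -0.99 by the probe set brightest over the 4 WAT arrays (1435399_at), a choice made after seeing the data. In muscle Myh11 was -0.26 and Des -0.061 with the mean of all probe sets, and Cnn1 -0.038 with a floor of 100. The cause was not tested. Of 499 values under alternatives, 477 were taken as unchanged. Of these, 319 were log2 differences that kept direction and side of the threshold. The other 158 were counts of genes, for which a moderate change was allowed. An example is 8 genes with a 2-fold ratio in WAT against 6 by geometric means.

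With the replicate number as a block, the counts of members called were again 0 in each tissue and 10, 8 and 8 for the tissue contrasts, while 22 probe sets outside the members passed in WAT against 0 without the block. Deviations of same-numbered arrays correlated at -0.18 in WAT, 0.18 in muscle and -0.030 in liver, over 2 pairs each, and the labels do not say that a number marks a shared mouse or day. With the pairing crossed in WAT, chosen after seeing the data, 0 probe sets and 0 members passed. The 2 arrays per group limit the precision.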

Other observations

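Leptin, the adipocyte hormone gene Lep, ran opposite to the smooth muscle genes on saline replicate 2 of WAT, with 2762 and 3283 on UAG arrays and 1495 and 392 on saline arrays. The sum of the white adipocyte markers spanned less than that (57599.7 and 62736 on UAG arrays, 56408 and 51559.9 on saline arrays).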
